A study of Homo sapiens with 6 samples.

Results

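The 10 genes described here encode core proteins of the BCL2 family, the switch that decides whether a cell opens its mitochondria and dies by apoptosis. They were chosen by name, as the rows of the gene tables named BCL2, BCL2L1, MCL1, BAX, BAK1, BCL2L11, BBC3, PMAIP1, BID and BAD, 10 of 62754 genes. They were read in 6 poly(A) RNA libraries of HUDEP-2, an immortalised human erythroid progenitor line. In 3 libraries the cells carried a lentiviral short hairpin RNA (shRNA) against MEN1, which encodes menin, a subunit of the MLL1 histone methyltransferase complex. In the other 3 they carried a non-targeting control shRNA, and the labels give their genotype as WT. Both groups were kept in StemSpan SFEM with doxycycline (1 µg per ml), dexamethasone (1e-06 M), SCF (50 ng per ml) and EPO (3 units per ml). Both were selected with puromycin at 2 µg per ml for 48 h from 24 h after infection and were profiled 72 h after transduction, so the controls share the virus, the drug and these survival factors. A single MEN1 hairpin was used in a single cell line, and an effect of menin loss cannot be told apart from an off-target effect of that hairpin. The labels call the 3 libraries of a group biological replicates without saying what was separate. In bulk RNA, a change in the number of cells of one kind and a change in RNA per cell cannot be told apart.

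BCL2 family proteins fall into 3 roles. The pro-survival proteins BCL2, BCL-xL (from BCL2L1) and MCL1 hold the effectors in check. The effectors BAX and BAK (from BAK1) form pores in the outer mitochondrial membrane and let out cytochrome c, which activates caspases. The BH3-only proteins BIM (from BCL2L11), PUMA (BBC3), NOXA (PMAIP1), BID and BAD sense stress or the loss of growth factors and either bind the pro-survival proteins or activate the effectors. In the erythroid lineage, erythropoietin keeps precursors alive largely through BCL-xL, and maturing red cells depend on it while they make hemoglobin.

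The start-site regions of 5 members are shown first because these genes frame the results: PMAIP1 and BBC3 had the largest rises of the 10 genes, BID and BAK1 the largest falls among the members tested, and BAX was the most abundant on TPM. Each line gives the 250 bases upstream of a RefSeq start site on GRCh38.p14, read 5′ to 3′ along the gene. Capitals mark matches, on either strand, to the GC box GGGCGG, the E box CACGTG and the CRE half-site TGACGT. Of the 10 members, 9 have an entry in the RefSeq table used. Where a gene has several entries, the start nearest the 5′ end in the deposited tables was taken, and BID has 5.
PMAIP1 (chr18:59899746-59899995, plus strand): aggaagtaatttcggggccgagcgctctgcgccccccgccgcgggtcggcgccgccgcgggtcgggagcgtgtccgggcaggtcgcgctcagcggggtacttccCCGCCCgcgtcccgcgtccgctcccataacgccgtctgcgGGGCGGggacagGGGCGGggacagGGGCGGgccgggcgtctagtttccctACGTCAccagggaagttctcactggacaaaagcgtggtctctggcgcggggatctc
BBC3 (chr19:47232668-47232917, minus strand): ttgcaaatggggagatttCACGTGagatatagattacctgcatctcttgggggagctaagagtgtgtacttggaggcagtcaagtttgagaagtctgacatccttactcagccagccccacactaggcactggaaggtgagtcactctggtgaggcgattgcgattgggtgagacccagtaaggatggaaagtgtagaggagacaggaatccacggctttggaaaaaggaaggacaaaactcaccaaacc
BID (chr22:17774666-17774915, minus strand): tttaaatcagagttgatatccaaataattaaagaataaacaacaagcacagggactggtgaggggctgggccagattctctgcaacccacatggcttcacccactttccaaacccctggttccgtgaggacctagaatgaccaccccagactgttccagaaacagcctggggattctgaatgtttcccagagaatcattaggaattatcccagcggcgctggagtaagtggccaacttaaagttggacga
BAK1 (chr6:33580277-33580526, minus strand): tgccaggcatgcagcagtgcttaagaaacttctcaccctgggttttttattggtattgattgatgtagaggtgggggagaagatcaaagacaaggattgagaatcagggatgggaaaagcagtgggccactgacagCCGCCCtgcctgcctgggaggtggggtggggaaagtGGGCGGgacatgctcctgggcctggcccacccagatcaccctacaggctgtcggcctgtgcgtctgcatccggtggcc
BAX (chr19:48954625-48954874, plus strand): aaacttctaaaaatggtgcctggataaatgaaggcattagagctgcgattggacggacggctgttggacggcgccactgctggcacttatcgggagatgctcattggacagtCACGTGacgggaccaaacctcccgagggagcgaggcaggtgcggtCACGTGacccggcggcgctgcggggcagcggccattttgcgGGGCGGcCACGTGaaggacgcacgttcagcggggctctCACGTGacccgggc

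The motifs were chosen with these sequences in view and a match is only a description. The PMAIP1 window held 4 GC boxes and 1 CRE half-site, the latter at bases -56 to -51 from the start. The BBC3 window held 1 E box at -232 to -227, and the BID window held none of the 3 motifs. The BAK1 window held 2 GC boxes, at -114 to -109 and -78 to -73. The BAX window held 4 E boxes, starting at -138, -93, -45 and -14, and 1 GC box. Among 35116 RefSeq windows of the same 250 bases, a GC box was found in 42.6%, an E box in 6.34% and a CRE half-site in 7.10%. A cutoff of 4 was taken from the BAX and PMAIP1 windows themselves. Of the 35116 windows, 5 (0.0142%) had 4 or more E boxes, that of BAX among them, and 7.63% had 4 or more GC boxes. The BAX start used lies 60 bases inside the deposited gene, so the E boxes starting at -45 and -14 fall within that gene. PMAIP1 and BBC3 had none of these motifs in common, nor did BID and BAK1.

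The depth implied by the deposited values was 18400000 to 35800000 read pairs per library. MEN1, which checks the labels, stood at 6.29 to 6.88 TPM, a length-scaled share of all transcripts, with the MEN1 shRNA and at 37.1 to 41.2 TPM in the controls (log2 fold change -2.42, SE 0.0803, adjusted p 8.54e-06 in limma). Of 10 erythroid markers, all had a TPM of 1 or more in every library. Markers of other blood cells were mostly below 1 TPM throughout: 5 of 8 myeloid, 6 of 7 lymphoid and 5 of 6 megakaryocyte genes. The exceptions were SPI1, CD68 and LYZ (myeloid), CD3D (lymphoid) and ITGA2B (megakaryocyte). PF4, PPBP and MS4A1 were listed at 0 in all libraries. Most erythroid markers moved with the groups. The summed TPM of the 10 was 95907 to 107883 with the MEN1 shRNA and 55447 to 61495 in the controls, nearly all of it from HBB, HBA1 and HBA2. By gene, 7 of the 10 rose, against 22.1% of all genes tested. EPOR, KLF1 and GATA1 did not pass an adjusted p of 0.05 (log2 fold changes 0.02, -0.05 and 0.06). Megakaryocyte markers summed to 16.6 to 21.5 against 31.8 to 36.7 TPM, nearly all of it ITGA2B. Lymphoid markers summed to 3.97 to 6.05 against 1.11 to 1.32 TPM, and myeloid markers to 46.2 to 59.2 against 42.5 to 50.7 TPM. The lymphoid difference was mostly 1 gene, CD3D, at 3.03 to 5.43 against 0.0709 to 0.777 TPM. CD3D passed the filter on low values only through the MEN1 shRNA libraries. The myeloid sums were nearly all SPI1 (28.4 to 36.6 against 27.8 to 35.9 TPM) and CD68 (17.1 to 22.8 against 10.4 to 12.3 TPM). The part of these shifts in the BCL2 family results was not tested.

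Of the 10 genes, 9 passed the filter on low values (TPM not under 1 in 3 or more libraries) and 7 of these passed an adjusted p of 0.05, 4 higher and 3 lower with the MEN1 shRNA. Across all 14294 genes tested, 53.6% passed, 22.1% higher and 31.5% lower, so changed genes were common in this comparison. MCL1, BCL2L1, BBC3 and PMAIP1 rose. BID, BAK1 and BAD fell. BAX and BCL2L11 did not pass the threshold, and BCL2 lay below the filter. The median log2 fold change of the 9 was 0.07, and that of all genes tested was -0.07. The effectors and the BH3-only genes thus each held genes with different outcomes, while both tested pro-survival genes, MCL1 and BCL2L1, rose. In all, 8 of the 9 tested members had no overlap between the groups' libraries, against 61.8% of all genes tested. Unless another measure or setting is named, fold changes are on the log2(TPM + 1) scale, which understates the change of low genes. Each adjusted p comes from limma by the Benjamini-Hochberg method, in the main fit over the 14294 genes.

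**Figure D1:**
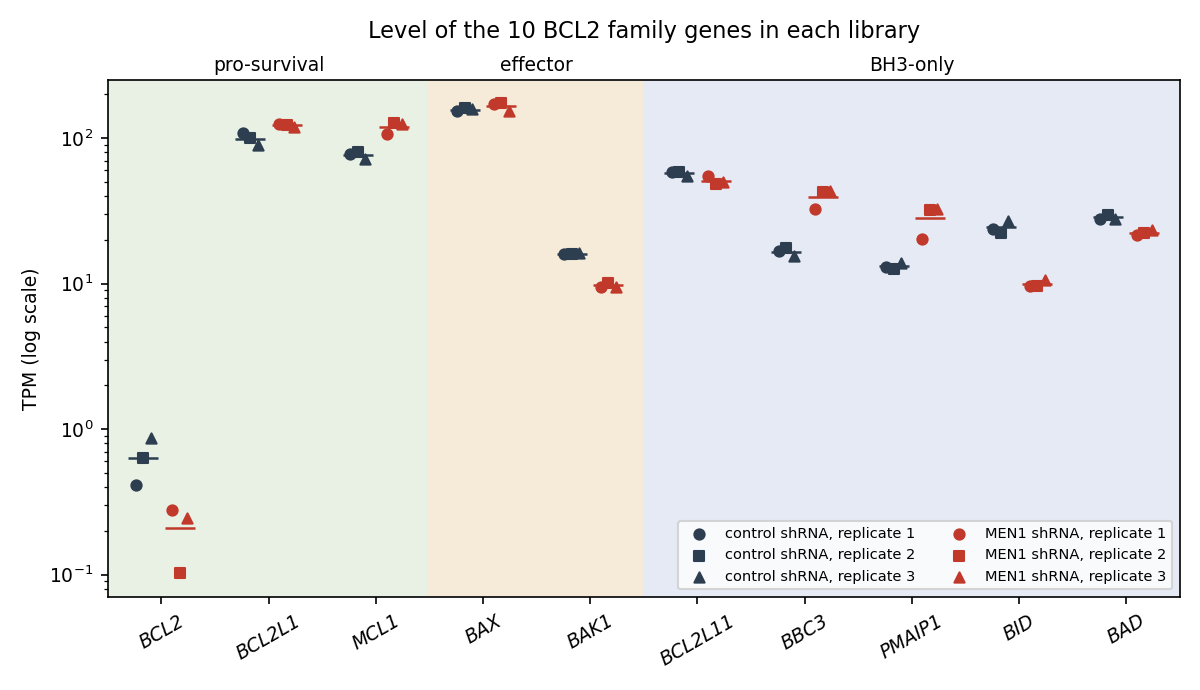
TPM of the 10 genes in each of the 6 libraries, on a log scale, ordered by role; points are libraries and bars are the means of the 3 libraries of a group. BBC3 and PMAIP1 lie higher and BID and BAK1 lower with the MEN1 shRNA, BAX overlaps between the groups, and BCL2 stays below 1 TPM everywhere.

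Among the pro-survival members, MCL1 and BCL2L1 both rose and BCL2 was barely detected. MCL1 encodes a short-lived pro-survival protein that NOXA binds and helps to remove. MCL1 (ENSG00000143384, chromosome 1, 150560895 to 150579738, minus strand, hg38) gave 106, 127 and 126 TPM under the MEN1 hairpin, against 77.2, 79.8 and 71.9 TPM under the control hairpin, listed here and below by replicate 1, 2 and 3. The lowest MEN1 shRNA value was well above the highest control. The means were 120 ± 11.5 and 76.3 ± 4.02 TPM (SD, n = 3 each), a log2 fold change of 0.64 (SE 0.0837, adjusted p 0.000525).

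BCL2L1 encodes BCL-xL, the main pro-survival protein downstream of erythropoietin. BCL2L1 (ENSG00000171552, chromosome 20, 31664452 to 31723989, minus strand) gave 125, 123 and 118 TPM under the MEN1 hairpin, against 108, 100.4 and 89.1 TPM under the control hairpin. The groups did not overlap, and the controls were the more spread out. Its log2 fold change was 0.31 (SE 0.0772, adjusted p 0.0118), a ratio of mean TPM of 1.24. The gene's opposite strand carries the noncoding gene ABALON, at 2.85 to 4.49 TPM with the MEN1 shRNA and 1.59 to 2.35 TPM in the controls, which shares 1424 of the 3314 exonic bases of BCL2L1 in GENCODE v29. Whether the counting used strand is not given in the sources used here.

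BCL2 itself, the founding member of the family (ENSG00000171791, chromosome 18, 63123346 to 63320128, minus strand), gave 0.276, 0.102 and 0.247 TPM under the MEN1 hairpin, against 0.410, 0.635 and 0.869 TPM under the control hairpin. The 3 MEN1 shRNA values were all below the 3 control values. Mean coverage of the gene was only 0.0159 to 0.118 reads per base, so its levels rest on very few reads. It was not tested with the filter. Without a filter its log2 fold change was -0.43 (SE 0.136) and its adjusted p was 0.0858, which misses the threshold. Among the pro-survival members, BCL2L1 and MCL1 were therefore the transcripts present in quantity. On TPM they stood side by side in the MEN1 shRNA libraries, where their ranges overlapped. In the controls BCL2L1 lay above MCL1 in every library. BCL2L2, a pro-survival gene outside the 10, stood at 12.9 to 15.3 TPM over all libraries.

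The 2 effectors differed. BAX, which waits in the cytosol and moves to mitochondria on activation (ENSG00000087088, chromosome 19, 48954815 to 48961798, plus strand), gave 171, 173 and 152 TPM under the MEN1 hairpin, against 152, 161 and 158 TPM under the control hairpin. The groups overlapped, because MEN1 shRNA replicate 3 lay below control replicates 2 and 3. Its log2 fold change was 0.07 (95% interval -0.08 to 0.23, adjusted p 0.369). BAX was the most abundant of the 10 genes on TPM in both groups.

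BAK1, whose protein sits in the outer mitochondrial membrane at all times (ENSG00000030110, chromosome 6, 33572547 to 33580293, minus strand), gave 9.54, 10.2 and 9.47 TPM under the MEN1 hairpin, against 15.98, 15.98 and 16.1 TPM under the control hairpin. The libraries of each group were close together and the groups lay far apart. BAK1 fell from 16.03 ± 0.0960 to 9.73 ± 0.381 TPM (SD, n = 3 each; log2 fold change -0.67, SE 0.0781, adjusted p 0.000310). The ratio of BAX to BAK1 within a library was 16.1 to 18.0 with the MEN1 shRNA and 9.53 to 10.0 in the controls on TPM. This ratio is a description of 2 chosen genes and was given no test.

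The 5 BH3-only genes moved both ways. BBC3 and PMAIP1, which encode PUMA and NOXA, had the largest rises of the 10 genes. BBC3 (ENSG00000105327, chromosome 19, 47220822 to 47232766, minus strand) gave 32.6, 42.3 and 43.2 TPM under the MEN1 hairpin, against 16.6, 17.6 and 15.4 TPM under the control hairpin. All MEN1 shRNA libraries were well above the controls, replicate 1 least so. Its log2 fold change was 1.19 (SE 0.118, adjusted p 0.000149), and the means were 39.4 ± 5.87 and 16.5 ± 1.06 TPM (SD, n = 3 each).

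PMAIP1 (ENSG00000141682, chromosome 18, 59899996 to 59904305, plus strand) gave 20.3, 32.2 and 32.5 TPM under the MEN1 hairpin, against 12.9, 12.6 and 13.95 TPM under the control hairpin. MEN1 shRNA replicate 1 again lay nearest to the controls, still above them. It rose by 1.02 on the log2 scale (SE 0.174, adjusted p 0.00184), by 1.24 without that library and by 0.91 without MEN1 shRNA replicate 3. In MCL1 and BBC3 replicate 1 was likewise the lowest MEN1 shRNA library, and without it their log2 fold changes were 0.72 and 1.32.

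BID, which caspase-8 cleaves to carry death receptor signals to mitochondria, had the largest fall of the members tested. BID (ENSG00000015475, chromosome 22, 17734138 to 17774770, minus strand) gave 9.70, 9.57 and 10.6 TPM under the MEN1 hairpin, against 23.7, 22.4 and 26.8 TPM under the control hairpin. Every control library held more than 2 times the level of any MEN1 shRNA library. Its log2 fold change was -1.20 (SE 0.0941, adjusted p 6.27e-05), and 41.0% of the control TPM remained.

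BAD, whose protein is held inactive by survival kinases (ENSG00000002330, chromosome 11, 64269830 to 64284704, minus strand), gave 21.5, 22.3 and 23.2 TPM under the MEN1 hairpin, against 27.97, 29.4 and 27.997 TPM under the control hairpin. The groups did not overlap, and the difference was modest (log2 fold change -0.34, SE 0.0683, adjusted p 0.00429). GPR137, on the opposite strand, shares 404 of the 1708 exonic bases of BAD in GENCODE v29. It stood at 20.9 to 21.8 TPM with the MEN1 shRNA and at 9.81 to 13.2 TPM in the controls, the opposite direction to BAD.

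BCL2L11 encodes BIM, the BH3-only protein best known for sensing loss of growth factors. BCL2L11 (ENSG00000153094, chromosome 2, 111119378 to 111168444, plus strand) gave 54.8, 48.5 and 49.9 TPM under the MEN1 hairpin, against 58.3, 58.1 and 55.2 TPM under the control hairpin. The groups touched without overlapping, with MEN1 shRNA replicate 1 just under control replicate 3. The log2 fold change of -0.16 (SE 0.0681) did not pass the threshold (adjusted p 0.0796), and without MEN1 shRNA replicate 1 it was -0.21 with an adjusted p of 0.0248. The whole gene lies inside the span of MIR4435-2HG on the opposite strand, which shares 727 of the 6658 exonic bases of BCL2L11. It stood at 63.9 to 70.1 TPM with the MEN1 shRNA and at 71.8 to 89.2 TPM in the controls, without overlap and lower in the same direction as BCL2L11.

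The make-up of the BH3-only transcripts differed between the groups. In the controls BBC3 lay below BID, with ratios of BBC3 to BID of 0.702, 0.785 and 0.576 on TPM. With the MEN1 shRNA BBC3 lay above BID, with ratios of 3.36, 4.42 and 4.07. The order of the 5 by mean TPM was BCL2L11, BAD, BID, BBC3 and PMAIP1 in the controls and BCL2L11, BBC3, PMAIP1, BAD and BID with the MEN1 shRNA. Neighbours in these orders did not overlap in their ranges, with 1 exception: PMAIP1 and BAD with the MEN1 shRNA, where replicate 1 of PMAIP1 fell below all 3 values of BAD. On the coverage measure described below, the order in the controls was BID, PMAIP1, BCL2L11, BBC3 and BAD. There the ranges overlapped for BID and PMAIP1, for BCL2L11 and BBC3, and for BBC3 and BAD, so these ranks are not resolved. With the MEN1 shRNA the order on coverage was PMAIP1, BBC3, BCL2L11, BID and BAD, and no neighbours overlapped. BCL2L11 was thus first on TPM only, while BBC3 lay below BID in the controls and above it with the MEN1 shRNA on both measures. These orders describe chosen genes and were not tested.

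**Figure D2:**
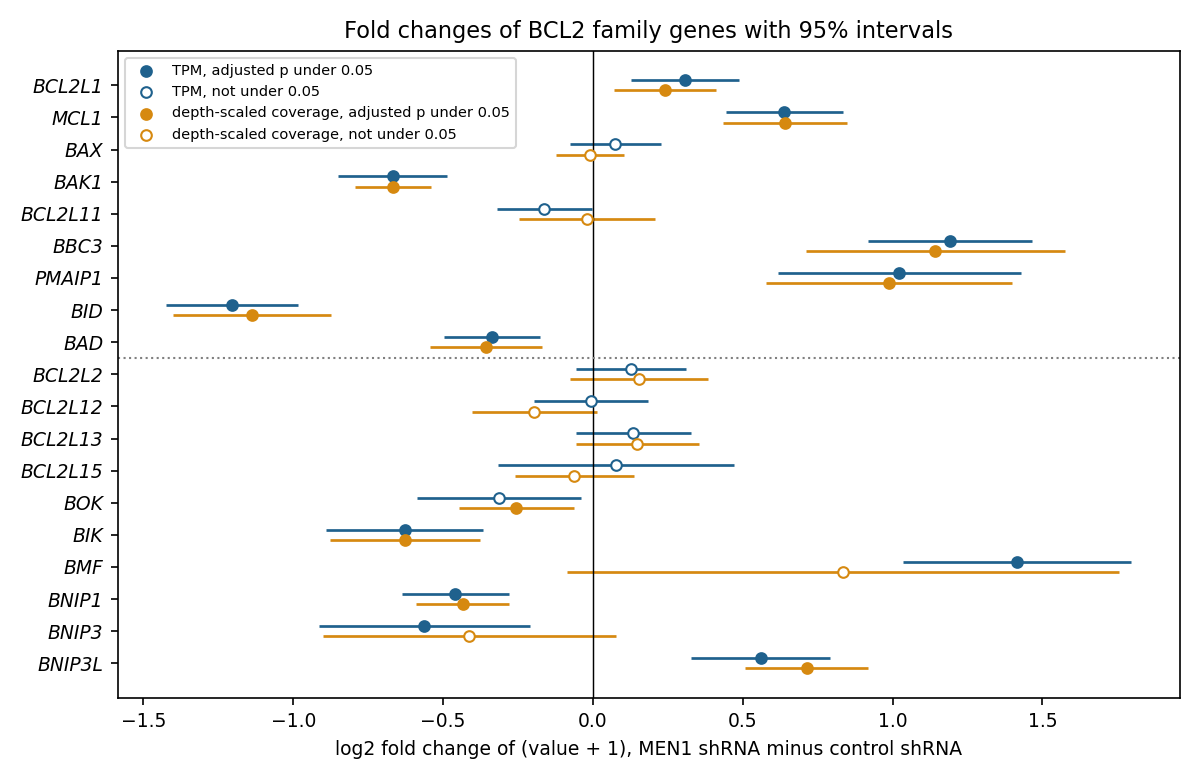
Log2 fold changes (MEN1 shRNA minus control shRNA) with 95% intervals from limma for the 9 tested members, above the dotted line, and the 10 other tested BCL2 family genes, on TPM and on gene coverage scaled for depth; filled points have an adjusted p under 0.05. Both measures give the same calls for the 9 members, while BMF, BNIP3 and BOK differ between them.

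Summed over each role, the pro-survival genes took 42.1% to 43.2% of the 10 genes' TPM with the MEN1 shRNA and 34.1% to 37.6% in the controls. The effectors took 28.6% to 32.8% and 34.1% to 36.6%. The pro-survival genes thus held a larger share in every MEN1 shRNA library and the effectors a smaller one. Shares of one total trade off against each other. The effectors summed to 175 ± 11.6 TPM with the MEN1 shRNA and 173 ± 4.26 TPM in the controls, so their TPM level was not lower. On the coverage measure described below, their sums were 63.1 ± 2.97 and 69.6 ± 0.984 (SD, n = 3 each). The BH3-only genes took 25.2% to 28.2% against 28.1% to 29.3%, and these ranges overlapped slightly. The summed TPM of the 10 genes was 568 ± 18.3 with the MEN1 shRNA and 489 ± 11.7 in the controls (SD, n = 3 each). These sums add genes chosen by name and carry no test.

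**Figure D3:**
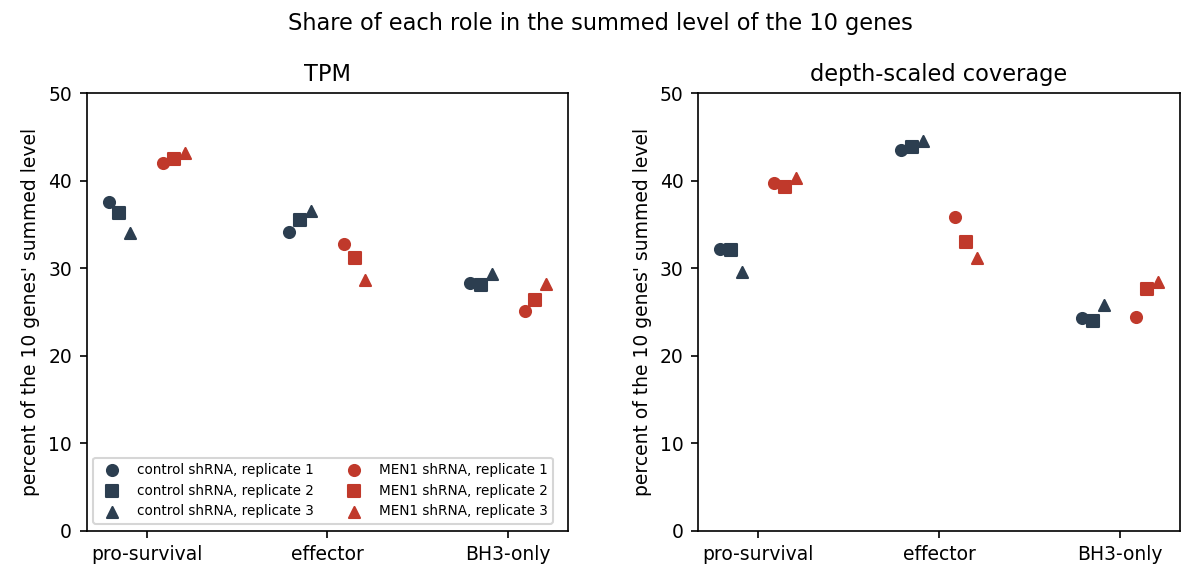
Percent of the 10 genes' summed level held by each role in every library, on TPM (left) and on depth-scaled coverage (right). The pro-survival share is higher and the effector share lower in all 3 MEN1 shRNA libraries on both measures, while the ranges of the BH3-only share overlap on TPM (25.2% to 28.2% against 28.1% to 29.3%) and on coverage.

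How abundant the members are relative to one another depended on the measure. The tables give, beside TPM, the mean read coverage of each gene, which was scaled here by each library's aligned bases so that it equals TPM in genes with a single transcript. The length over which coverage was averaged is not given in the sources used here, and gene tables do not show which transcripts carry the TPM of a gene such as BCL2L1 or BCL2L11. In BAK1 this value was 98.1% to 98.2% of the TPM. It was 81.5% to 85.7% in PMAIP1, 55.8% to 57.0% in MCL1, 39.0% to 49.9% in BID, 30.3% to 34.7% in BAX and 29.2% to 35.04% in BBC3. It was lowest in BAD (14.3% to 16.4%), BCL2L11 (10.0% to 14.03%), BCL2L1 (6.53% to 7.02%) and BCL2 (3.50% to 4.53%). GENCODE v29 lists 3 transcripts each for BAK1 and PMAIP1, against 9 for BCL2L1 and 25 for BCL2L11. On scaled coverage MCL1 stood at 67.5 ± 6.75 and BCL2L1 at 8.07 ± 0.180 with the MEN1 shRNA (SD, n = 3 each). MCL1 was 7.29, 8.69 and 9.12 times BCL2L1 in those libraries on this measure and 0.847, 1.03 and 1.06 times on TPM. Which of the 2 genes is the more abundant is therefore not settled by these tables.

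**Figure D4:**
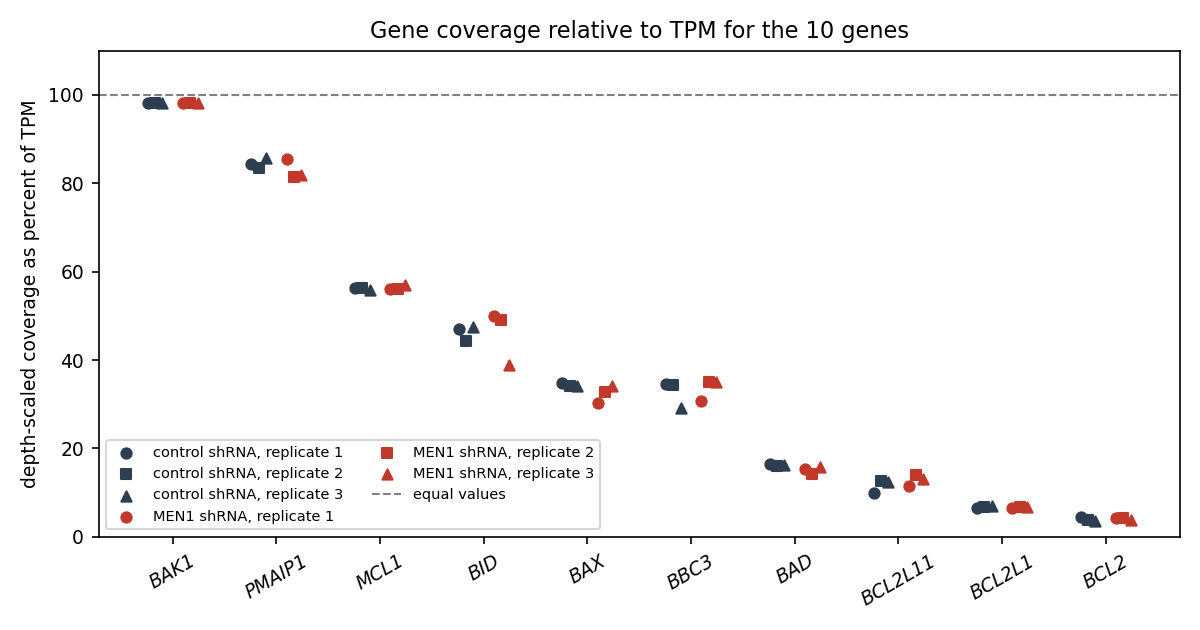
Depth-scaled gene coverage as a percent of TPM for each of the 10 genes in each library; the dashed line marks equal values. BAK1 lies at 98.1% to 98.2% and BCL2L1 at 6.53% to 7.02%, with little difference between the groups.

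The direction of the differences depended less on the measure. On scaled coverage the same 7 members passed the threshold in the same directions, 4 higher and 3 lower. Of all genes tested, 53.5% passed on that measure, 21.6% higher and 32.0% lower. BID had a log2 fold change of -1.14, BBC3 of 1.14, PMAIP1 of 0.99, BAK1 of -0.67, MCL1 of 0.64, BAD of -0.36 and BCL2L1 of 0.24, with adjusted p-values of 0.000275 to 0.0276. BAX (-0.01) and BCL2L11 (-0.02) lay at 0 on this measure, with adjusted p-values of 0.875 and 0.880. On scaled coverage the BH3-only share was 24.5% to 28.4% with the MEN1 shRNA and 23.9% to 25.9% in the controls, so these ranges overlapped too and its mean was the higher one with the MEN1 shRNA, unlike on TPM.

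The other genes of the BCL2 family were described from a list of 14, of which 10 passed the filter, with 2 higher and 3 lower. Beside this count and those of the lists below stand the shares of all genes tested, 22.1% higher and 31.5% lower. BMF, a BH3-only protein tied to the cytoskeleton, rose from 1.02 ± 0.155 to 4.43 ± 0.933 TPM (SD, n = 3 each; log2 fold change 1.42, adjusted p 0.000296), but on scaled coverage its log2 fold change was 0.84 with an adjusted p of 0.110. BNIP3L, also called NIX, which clears mitochondria from maturing red cells, rose by 0.56 on the log2 scale, from 424 ± 26.2 to 628 ± 85.5 TPM (adjusted p 0.00228). On TPM it was above all 10 members, but on scaled coverage it stood at 60.9 ± 4.64 and 36.8 ± 3.44 (SD, n = 3 each), with a mean below that of MCL1 in both groups. BIK, another BH3-only gene, fell by 0.63 on the log2 scale, from 14.3 ± 0.811 to 8.95 ± 1.21 TPM (adjusted p 0.00233).

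BNIP1, which works in the endoplasmic reticulum, fell (log2 fold change -0.46, adjusted p 0.00171), and so did BNIP3, a mitophagy receptor induced by low oxygen (-0.56, adjusted p 0.0155). The BNIP3 call was lost without the filter (adjusted p 0.0682), on scaled coverage (adjusted p 0.132) and without control replicate 2 (adjusted p 0.0537). BOK, a BAX-like effector, had a log2 fold change of -0.31 on TPM (adjusted p 0.0552) and of -0.26 on scaled coverage (adjusted p 0.0340), and it passed with array weights (adjusted p 0.0394). Values for the remaining 4 were 0.13 for the pro-survival gene BCL2L2, 0.13 for BCL2L13, 0.08 for BCL2L15 and -0.01 for BCL2L12, with adjusted p-values of 0.208 to 0.958. BCL2L13 passed with median-of-ratios scaling (0.22, adjusted p 0.0411) and with quantile scaling (0.23, adjusted p 0.0342), and BCL2L2 with quantile scaling (0.26, adjusted p 0.0231). The pro-survival gene BCL2A1, BCL2L10 and the BH3-only gene HRK were listed at 0 in all 6 libraries, and BCL2L14 reached at most 0.196 TPM.

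Downstream of the family, cytochrome c and several caspases differed. CYCS, which encodes cytochrome c, fell from 112 ± 5.59 to 50.8 ± 1.93 TPM (SD, n = 3 each; log2 fold change -1.12, adjusted p 2.52e-05). Of the 11 genes of the apoptosome and caspase list, all tested, 2 were higher and 6 lower. APAF1, the scaffold of the apoptosome, had a log2 fold change of -0.13 (adjusted p 0.307). CASP6, an executioner caspase, fell (-0.94, adjusted p 0.000283), as did DFFB, the nuclease that cuts chromatin in apoptosis (-1.11, adjusted p 0.00126).

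Among 7 caspase inhibitors and their antagonists, 4 were higher and 1 lower. XIAP, which blocks caspases directly, rose from 13.2 ± 0.313 to 19.4 ± 1.31 TPM (SD, n = 3 each; log2 fold change 0.52, adjusted p 0.00120). BIRC2 (0.35, adjusted p 0.0291) and HTRA2, an antagonist of the inhibitors (0.15, adjusted p 0.0386), were higher. BIRC6 was lower (-0.24, adjusted p 0.0359), but these 3 calls were lost under several alternatives. With single libraries left out, the log2 fold change of HTRA2 stayed at 0.14 to 0.17 while its adjusted p was 0.0572 to 0.118, whichever of the 6 was dropped. That of BIRC2 was 0.24 to 0.41, with the call lost without MEN1 shRNA replicate 1 or 3 or control replicate 2 (adjusted p 0.0642 to 0.0859). That of BIRC6 was -0.30 to -0.19, with the call lost without any 1 MEN1 shRNA library or control replicate 2 or 3 (adjusted p 0.0642 to 0.118). BIRC6 also missed the threshold with median-of-ratios scaling (-0.15, adjusted p 0.101), with quantile scaling (-0.13, adjusted p 0.175) and without globin and mitochondrial genes (-0.17, adjusted p 0.1004). On scaled coverage BIRC2 (adjusted p 0.0810) and HTRA2 (adjusted p 0.0632) missed it. BIRC3, also among the 4 higher genes, is named here after its values were seen. It stood at 0.292 ± 0.103 TPM in the controls and 4.44 ± 1.83 TPM with the MEN1 shRNA. Its control values were at most 0.391 TPM, so it passed the filter only through the MEN1 shRNA libraries. Its call is therefore given no weight.

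Of 10 death receptor genes, 9 were tested, with 5 higher and 0 lower in limma. Of all genes tested, 53.6% passed, 22.1% higher and 31.5% lower, so a list this short is only described. At an unadjusted p under 0.05 the count of lower genes in this list was also 0. The receptors TNFRSF1A (log2 fold change 0.69, adjusted p 0.00547) and FAS (0.54, adjusted p 0.00632) rose, together with the signalling kinase RIPK1 (0.49, adjusted p 0.00260) and CFLAR, which restrains caspase-8 (0.46, adjusted p 0.00914). BID, the link from these receptors to the mitochondria, fell as given above.

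**Figure D5:**
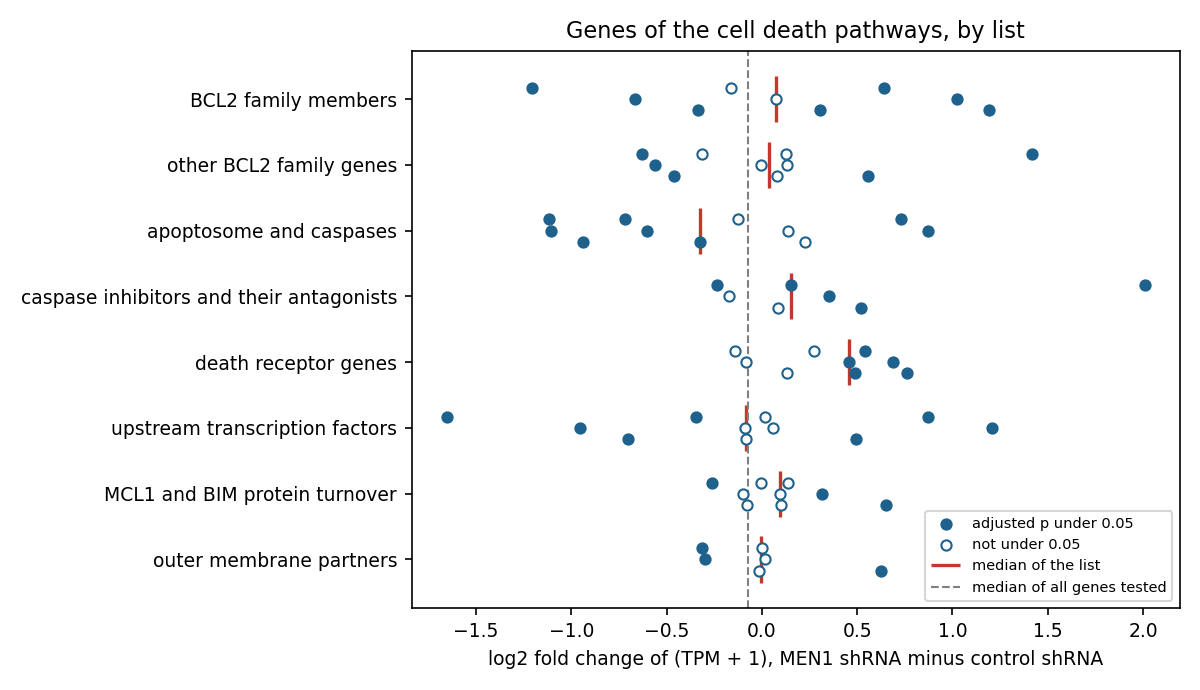
Log2 fold changes of the tested genes of 8 lists (points; filled where the adjusted p is under 0.05), with the median of each list as a red bar and the median of all 14294 genes tested, -0.07, as a dashed line. Each list holds genes on both sides of 0. In the death receptor list 5 genes passed the threshold on the higher side and 0 on the lower. Of all genes tested, 22.1% passed on the higher side and 31.5% on the lower.

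Transcription factors known to act on members were read from a list of 14, of which 11 were tested, 3 higher and 4 lower. DDIT3, the stress factor CHOP, rose from 9.35 ± 1.06 to 23.4 ± 6.22 TPM (SD, n = 3 each; log2 fold change 1.21, adjusted p 0.00142), and E2F1 rose (0.87, adjusted p 9.48e-05). MYC, which binds E boxes, fell from 232 ± 6.52 to 74.1 ± 15.4 TPM (-1.65, adjusted p 6.40e-05), and NFKB1 fell (-0.96, adjusted p 0.000776). STAT5A and STAT5B, which carry the erythropoietin signal to BCL2L1, fell with log2 fold changes of -0.70 and -0.35 (adjusted p 0.000113 and 0.00415). GATA1, the erythroid master regulator, had a log2 fold change of 0.06 (adjusted p 0.327), and of 0.15 with median-of-ratios scaling (adjusted p 0.0428).

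Of 9 genes for MCL1 and BIM protein turnover, 2 were higher and 1 lower. USP9X, a deubiquitinase that stabilises MCL1, rose from 46.2 ± 2.85 to 73.2 ± 4.49 TPM (SD, n = 3 each; log2 fold change 0.65, adjusted p 0.000282), and DYNLL1, a dynein light chain that binds BIM, rose by 0.32 (adjusted p 0.00139). BTRC, a ubiquitin ligase subunit, was lower (-0.26, adjusted p 0.0259), a call lost without MEN1 shRNA replicate 3 or any 1 control library (log2 fold change -0.28 to -0.19, adjusted p 0.0504 to 0.0779). The BTRC call was also lost with median-of-ratios scaling (-0.18, adjusted p 0.122), with quantile scaling (-0.17, adjusted p 0.117) and without globin and mitochondrial genes (-0.20, adjusted p 0.0803). A list of 6 genes was named outer membrane partners, though TMBIM6 encodes a protein of the endoplasmic reticulum. In this list TMBIM6 rose (0.62, adjusted p 0.000139), while the channel genes VDAC1 (-0.32, adjusted p 0.00263) and VDAC3 (-0.30, adjusted p 0.00175) fell. VDAC2, a docking site of BAK and BAX, had a log2 fold change of 0.02 (95% interval -0.15 to 0.18, adjusted p 0.871). Over the 7 lists together, 63 genes were tested and 36 passed, 19 higher and 17 lower, with a median log2 fold change of 0.02. Of all genes tested, 53.6% passed, 22.1% higher and 31.5% lower. The list counts are therefore not read as a result about cell death genes.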

How the data were processed

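Poly(A) RNA of 6 libraries was sequenced, 3 per group, from stranded libraries per the labels' protocols. The submitters' processing notes name FastQC, Trimmomatic, STAR 2.7.1a, Picard 2.20.4, StringTie 2.0.4 and hg38, without their roles; the annotation is not given in the sources used here. The deposited TPM values have the same sum in every library. The deposited FPKM values are fragments scaled for length and depth by the authors, per the file headers, and the deposited coverage is a mean signal per base not scaled for depth. No counts were used, and how reads were divided among isoforms is the authors' step and can move TPM. In control replicate 2, negative residues in 2 genes were set to 0. All 10 members overlap their position in GENCODE v29 (GRCh38).

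Genes whose TPM was not under 1 in 3 or more libraries were tested on log2(TPM + 1) with limma 3.58.1 in R 4.3.3 (eBayes with trend, all 6 libraries, no covariates, 2-sided, Benjamini-Hochberg over 14294 genes, threshold 0.05), after a test on simulated data. Depth came from the ratio of coverage to FPKM in 2392 to 2732 genes with a single transcript in GENCODE v29, which was the same within 0.1% in 94.9% to 95.4% of them; read pairs take 302 bases each, the most frequent product of coverage and length in such genes with few reads. Scaled coverage is coverage divided by that ratio, brought to the TPM scale. Tables and figures used Python 3.11.15, pandas 2.3.3, NumPy 2.4.6 and matplotlib 3.10.9.

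The members and lists were chosen with earlier results of these data known. The text names all members, every tested gene of the other BCL2 family list, and from each other list at most 4 called genes with the largest fold change and a mean TPM of 5 or more, plus fixed genes and MEN1; some results are not reported here. Alternatives tried were pseudocounts, filters, FPKM, scalings, a replicate block, array weights, stricter thresholds, single libraries left out and, chosen after seeing the data, scaled coverage.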

Additional observations from a re-analysis of the deposited data

How the results depend on the processing

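Across 171 comparisons of the 9 tested members with an alternative, in 163 the call was unchanged. Several alternatives keep the main log2 fold change, so a sign could not change in them. Only BAX, which was not called, changed sign, on scaled coverage. The count of members past the threshold was 7, with 4 higher and 3 lower. With the limma test treat, which asks for a change beyond 0.5 on the log2 scale, 2 remained (BBC3 and BID), 1 higher and 1 lower, and 9 in place of 36 genes of the other lists, by its own construction. MCL1, BAK1, PMAIP1, BCL2L1 and BAD missed that test (adjusted p 0.305, 0.167, 0.0591, 1 and 1). Leaving out 1 library gave 7 to 8 members, 4 higher and 3 to 4 lower, and 31 to 34 other genes. BCL2L11 passed with array weights (adjusted p 0.0344) and without MEN1 shRNA replicate 1, and BCL2L1 missed an adjusted p of 0.01. For BAX the log2 fold change was 0.16 with median-of-ratios scaling (adjusted p 0.0792) and -0.01 on scaled coverage; that scaling moved the median of all genes from -0.07 to 0.01. Libraries with the same replicate number did not deviate together (correlations 0.0171, -0.0265 and -0.0124). With the replicate block 7 members and 33 other genes passed, and no member's call changed. The files give no read counts, so the precision of BCL2, at under 1 TPM, was not measured beyond the spread of 3 libraries.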
